A study of Mus musculus with 7 samples.

Results

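Cortical inhibitory interneurons were followed through 9 identity genes in prefrontal cortex (PFC) tissue: Gad1, Gad2, Slc32a1, Pvalb, Sst, Vip, Npy, Lhx6 and Reln. They were chosen by name, with earlier results of these data known, among the protein-coding genes of the deposited table. That table holds 55416 genes, 21885 of them protein-coding. All 9 had enough reads to be tested, among 17254 genes tested. They fall into 3 genes of GABA synthesis and vesicle loading, which every GABAergic neuron needs, and 6 genes that tell interneuron subclasses apart.

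RNA-seq of polyadenylated RNA was compared among 3 groups of female C57BL/6 wild-type mice whose PFC was injected on both sides with adeno-associated virus (AAV). Alt mice (n = 2 libraries) received a vector that expresses the human long noncoding RNA PAXIP1-AS1 with the alternative G allele, and Ref mice (n = 2) the same RNA with the reference C allele. Ctr mice (n = 3) received the empty vector. Every vector carried EGFP under the human synapsin promoter, which is active in neurons without selecting a class, so that all groups share the surgery, the virus and the reporter. The age of the sequenced mice and the number of animals behind each library are not given in the sources used here, and p-values therefore measure only the spread between these libraries. The transcript carried by the virus was not analysed here.

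GABA, the main inhibitory transmitter of the cortex, is made from glutamate by the glutamate decarboxylases GAD67 and GAD65, which Gad1 and Gad2 encode, and is loaded into synaptic vesicles by the transporter encoded by Slc32a1. Interneurons differ in the calcium buffers and neuropeptides they make. Parvalbumin cells are fast-spiking and target cell bodies and axon initial segments, somatostatin cells target dendrites, and Vip cells mainly inhibit other interneurons.

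Total counts per library ranged from 16655697 to 20750857, with both Alt libraries (16655697 and 18673575) below the other 5. Pairs of libraries within Ctr and within Ref differed by a chi-square per degree of freedom of 19 to 25.6, and the pair of Alt libraries by 59.6, so no pair agreed within sampling noise. Markers of excitatory neurons were set against those of striatal projection neurons, which cannot tell PFC from other cortex. The 7 excitatory neuron markers summed to 4084 to 5303 TPM (counts divided by gene length and scaled to the same total in every library), against 64.6 to 124 TPM for the 6 markers of striatal projection neurons, and each of these 13 genes was detected in every library. Alt replicate 1 stood apart by gene length. On the log2 scale of CPM (counts scaled by the normalized library total), and with the genes tested split into 10 classes by length, its shortest class lay at a median of -0.55 from the Ctr mean and its longest class at 0.54. In Alt replicate 2 these medians were -0.17 and 0.19, and in the other 5 libraries they lay between -0.13 and 0.12. Gene length therefore moves with the Alt label, and the differences of the named members between Alt and Ctr, and the medians of the gene lists, are also given with a length correction. Its part in the results was not otherwise tested.

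The promoters of the 4 subclass genes with lower levels in Alt are shown because these genes passed the same unadjusted line in the same direction between Alt and Ctr. The 250 bases before the annotated start come from RefSeq on GRCm38.p6, which had windows for 9 of 9 members, 12 windows in all because Pvalb has 2 starts and Lhx6 has 3. Capitals mark the cAMP response element (CRE) TGACGTCA, its shorter core TGACG and the TATA box TATAAA, each searched on both strands. A CRE holds the core on each strand, so a CRE counts under both motifs. The sequences run 5′ to 3′ on the gene's strand.
Sst, chr16:23890845-23891094, minus strand: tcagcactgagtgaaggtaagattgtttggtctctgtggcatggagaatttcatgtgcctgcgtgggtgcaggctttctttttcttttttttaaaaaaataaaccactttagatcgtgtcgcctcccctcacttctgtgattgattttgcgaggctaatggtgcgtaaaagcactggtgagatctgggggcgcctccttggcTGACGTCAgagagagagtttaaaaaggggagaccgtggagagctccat
Npy, chr6:49822460-49822709, plus strand: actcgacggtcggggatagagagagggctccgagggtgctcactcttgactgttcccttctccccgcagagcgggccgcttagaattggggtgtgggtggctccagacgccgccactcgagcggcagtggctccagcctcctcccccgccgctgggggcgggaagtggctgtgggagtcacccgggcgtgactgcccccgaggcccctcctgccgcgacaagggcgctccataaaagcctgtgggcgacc
Vip, chr10:5638968-5639217, plus strand: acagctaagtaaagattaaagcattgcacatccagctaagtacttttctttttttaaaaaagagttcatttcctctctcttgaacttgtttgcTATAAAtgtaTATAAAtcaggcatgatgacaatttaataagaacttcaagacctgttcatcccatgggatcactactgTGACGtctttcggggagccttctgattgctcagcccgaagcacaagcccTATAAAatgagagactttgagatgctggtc
Pvalb start 1, chr15:78206401-78206650, minus strand: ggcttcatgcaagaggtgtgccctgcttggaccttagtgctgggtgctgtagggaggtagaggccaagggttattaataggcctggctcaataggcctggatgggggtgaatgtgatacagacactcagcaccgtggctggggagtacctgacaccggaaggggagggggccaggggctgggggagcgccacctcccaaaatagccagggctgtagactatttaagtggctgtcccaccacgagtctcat
Pvalb start 2, chr15:78204238-78204487, minus strand: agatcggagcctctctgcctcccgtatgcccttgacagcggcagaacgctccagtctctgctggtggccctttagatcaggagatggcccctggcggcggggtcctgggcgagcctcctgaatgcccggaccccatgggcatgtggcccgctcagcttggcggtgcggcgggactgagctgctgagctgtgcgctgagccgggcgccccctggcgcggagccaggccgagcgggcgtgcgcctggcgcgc

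Sst was the only member with a full CRE, which ended 40 bases before its start, whereas 1.55% of all 32851 windows held one. Vip held a core 74 bases before its start and TATA boxes at 24, 141 and 151 bases, and Gad2 held a core at 28 bases. The core occurred in 17.8% of all windows. Gad1 held a TATA box 135 bases before its start, and this motif occurred in 12.4% of windows. The windows of Npy, Pvalb, Slc32a1, Lhx6 and Reln held none of these letters. These matches describe the sequence and do not show that a factor binds.

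Levels of different genes are compared per length, in TPM as the authors deposited them. In Ctr, Sst was the highest of the 9 genes at 275 ± 68.6 TPM (SD, n = 3). Npy at 56.1 ± 7.54 TPM, Gad1 at 52.3 ± 16.6 TPM and Gad2 at 42.7 ± 2.91 TPM followed, and the library ranges of each of these neighbours overlapped. Vip at 28.7 ± 3.12 TPM overlapped with Slc32a1 at 27.4 ± 4.5 TPM. Pvalb stood alone at 17.1 ± 1.33 TPM. Lhx6, at 6.85 ± 0.465 TPM, and Reln, at 6.73 ± 0.793 TPM, were lowest and overlapped each other. The lowest count of Pvalb, 34 reads in Alt replicate 1, was the fewest reads of any member in a library.

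**Figure D1:**
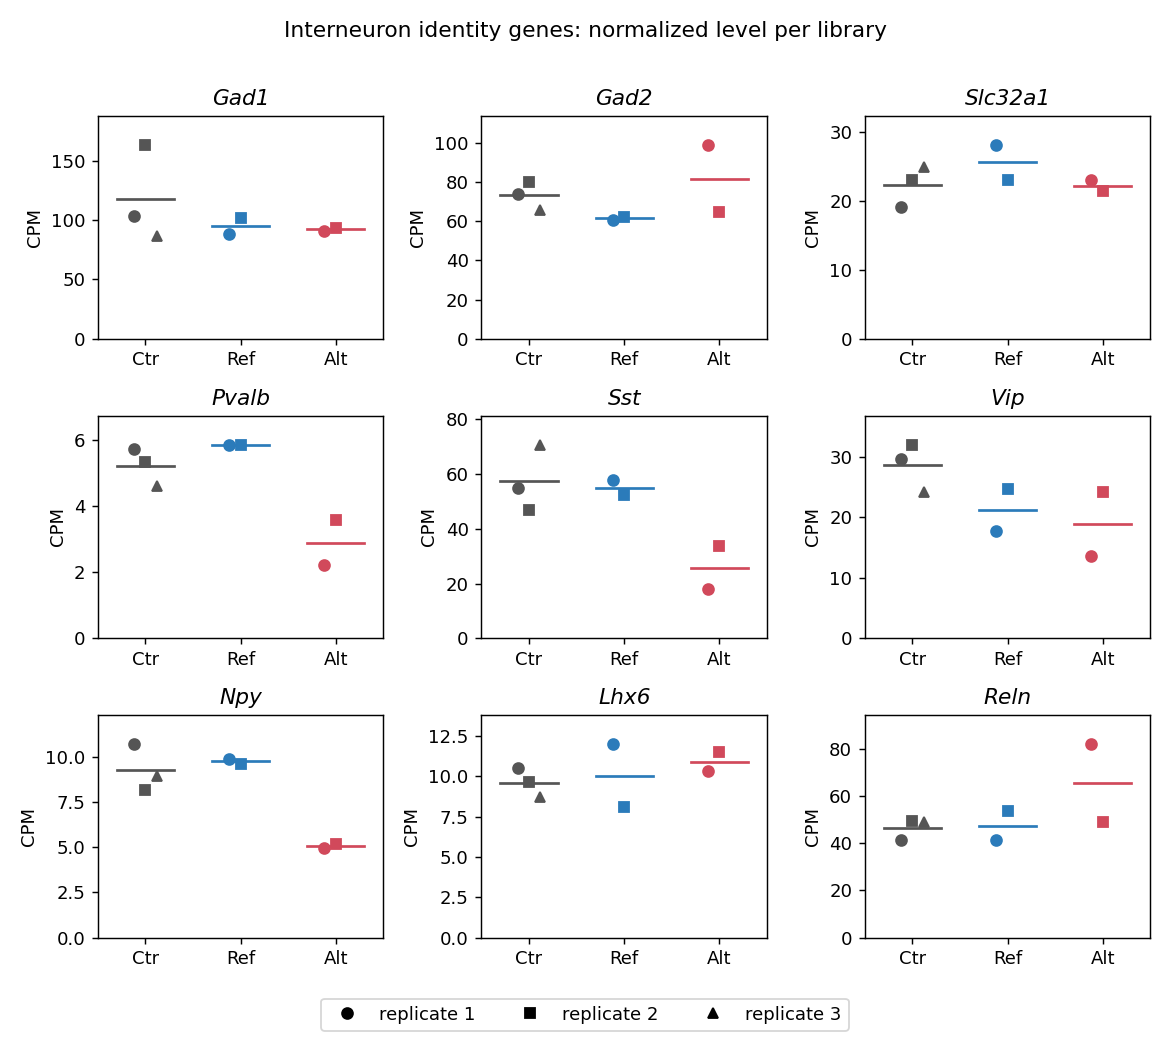
Normalized level of each of the 9 genes in CPM (vertical axes from 0) in the 3 Ctr, 2 Ref and 2 Alt libraries; each point is a library, its shape the replicate number, and each line the group mean. Both Alt libraries lie below every Ctr and Ref library for Pvalb, Sst and Npy, while Gad1, Slc32a1 and Lhx6 overlap between Alt and Ctr.

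The question put to these genes was whether GABA synthesis and the subclass genes moved together when the Alt or Ref transcript was expressed. Between Alt and Ctr they did not pass the same lines. None of the 3 synthesis genes reached an unadjusted p of 0.05, whereas 5 of the 6 subclass genes did, 4 lower in Alt (Sst, Npy, Pvalb and Vip) and 1 higher (Reln). Over all genes tested, 19.8% passed this line, 10.3% lower and 9.45% higher in Alt. By edgeR's quasi-likelihood test with Benjamini-Hochberg adjustment no member passed an adjusted p of 0.05, and neither did any other gene (0.0%). edgeR called 3414 of 17254 genes at an unadjusted p of 0.05, and DESeq2 called 1123 genes at an adjusted p of 0.05, Sst among them. The median log2 fold change was -0.01 over the synthesis genes and -0.72 over the subclass genes, beside -0.03 over all genes tested. Positions below are those of the deposited table, whose build is not given in the sources used here, and lengths in bases are the gene lengths listed there. In bulk tissue, fewer cells of a type and less RNA per cell cannot be told apart.

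Sst (ENSMUSG00000004366.5, chromosome 16, 23708323 to 23709708, minus strand, 721 bases) encodes somatostatin, the peptide that defines the dendrite-targeting subclass. Its levels, in CPM after TMM normalization (a scaling that evens out library composition), were 54.8, 46.9 and 70.8 in the Ctr libraries, 57.9 and 52.3 in Ref, and 18 and 33.6 in Alt. Both Alt libraries lay below the other 5. The level in Alt was 0.449 times that in Ctr, a log2 fold change of -1.15 ± 0.26 (SE) with an unadjusted p of 0.000911 and an adjusted p of 0.12 (edgeR quasi-likelihood test, Benjamini-Hochberg).

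Npy (ENSMUSG00000029819.7, chromosome 6, 49799690 to 49806487, plus strand, 566 bases) encodes neuropeptide Y, made by somatostatin cells and by neurogliaform cells. It was measured at 10.7, 8.17 and 8.96 CPM in Ctr, 9.87 and 9.62 CPM in Ref, and 4.94 and 5.19 CPM in Alt. The Alt libraries were close to each other and below all others. Its log2 fold change between Alt and Ctr was -0.87 ± 0.27, with an unadjusted p of 0.00738 and an adjusted p of 0.134 in the same edgeR fit.

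Pvalb (ENSMUSG00000005716.17, chromosome 15, 78075314 to 78090600, minus strand, 1041 bases) encodes parvalbumin, the calcium buffer of fast-spiking cells. Its levels were 5.71, 5.32 and 4.6 CPM in Ctr, 5.85 and 5.84 CPM in Ref, and 2.21 and 3.57 CPM in Alt. The groups again did not overlap. The log2 fold change between Alt and Ctr was -0.84 ± 0.36, with an unadjusted p of 0.0387 and an adjusted p of 0.226 in edgeR.

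Vip (ENSMUSG00000019772.6, chromosome 10, 5589218 to 5597617, plus strand, 3402 bases) encodes vasoactive intestinal peptide, the marker of disinhibitory interneurons. It stood at 29.7, 32 and 24.2 CPM in Ctr, 17.8 and 24.7 CPM in Ref, and 13.6 and 24.1 CPM in Alt. Alt replicate 2 lay just under the lowest Ctr library, and Alt overlapped with Ref. The log2 fold change between Alt and Ctr was -0.60 ± 0.27, with an unadjusted p of 0.0462 and an adjusted p of 0.244 in edgeR.

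Reln (ENSMUSG00000042453.15, chromosome 5, 22089452 to 22549700, minus strand, 23738 bases) encodes reelin, a secreted protein of the extracellular matrix that many neurogliaform and somatostatin cells make in the adult cortex. Its levels were 41.3, 49.4 and 49 CPM in Ctr, 41.2 and 53.9 CPM in Ref, and 82.1 and 49 CPM in Alt. Only Alt replicate 1 was high, and Alt replicate 2 lay within the range of Ctr. The log2 fold change between Alt and Ctr was 0.49 ± 0.22 with an unadjusted p of 0.0451, and without Alt replicate 1 it was 0.08 ± 0.21 with an unadjusted p of 0.724.

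Lhx6 (ENSMUSG00000026890.20, chromosome 2, 35971965 to 35995420, minus strand, 4805 bases) encodes a transcription factor of interneurons born in the medial ganglionic eminence, which become parvalbumin and somatostatin cells. It was at 10.5, 9.65 and 8.69 CPM in Ctr, 12 and 8.07 CPM in Ref, and 10.3 and 11.5 CPM in Alt. These ranges overlapped, and the log2 fold change between Alt and Ctr was 0.18 ± 0.26 with an unadjusted p of 0.494. Lhx6 therefore did not pass the line that Sst and Pvalb passed, although the difference between these genes was not tested.

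Gad1 (ENSMUSG00000070880.11, chromosome 2, 70383416 to 70432358, plus strand, 7639 bases), the source of most GABA in cell bodies, was at 103, 163 and 86.6 CPM in Ctr, 87.9 and 102 CPM in Ref, and 91 and 93.1 CPM in Alt. Ctr replicate 2 was the highest library, and all others lay close together. The log2 fold change between Alt and Ctr was -0.35 ± 0.23 with an unadjusted p of 0.156, and without Ctr replicate 2 it was -0.04.

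Gad2 (ENSMUSG00000026787.4, chromosome 2, 22512217 to 22583886, plus strand, 5876 bases), which encodes the synaptic form of the enzyme, was at 74.1, 80.3 and 65.7 CPM in Ctr, 60.9 and 62.4 CPM in Ref, and 98.9 and 64.7 CPM in Alt. The Alt libraries lay on either side of the Ctr range. The log2 fold change between Alt and Ctr was 0.16 ± 0.19 with an unadjusted p of 0.424, and it was -0.18 without Alt replicate 1.

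Slc32a1 (ENSMUSG00000037771.12, chromosome 2, 158452687 to 158457668, plus strand, 2797 bases), the vesicular GABA transporter, was at 19.1, 23 and 25 CPM in Ctr, 28.1 and 23.1 CPM in Ref, and 23 and 21.4 CPM in Alt. Both Alt libraries lay within the Ctr range, and the log2 fold change between Alt and Ctr was -0.01 ± 0.20 with an unadjusted p of 0.96. For 4 of the 9 members, Sst, Npy, Pvalb and Vip, every Alt library lay below every Ctr library, which held for 18.1% of all genes tested. For no member did every Alt library lie above every Ctr library, which held for 16.8% of genes.

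**Figure D2:**
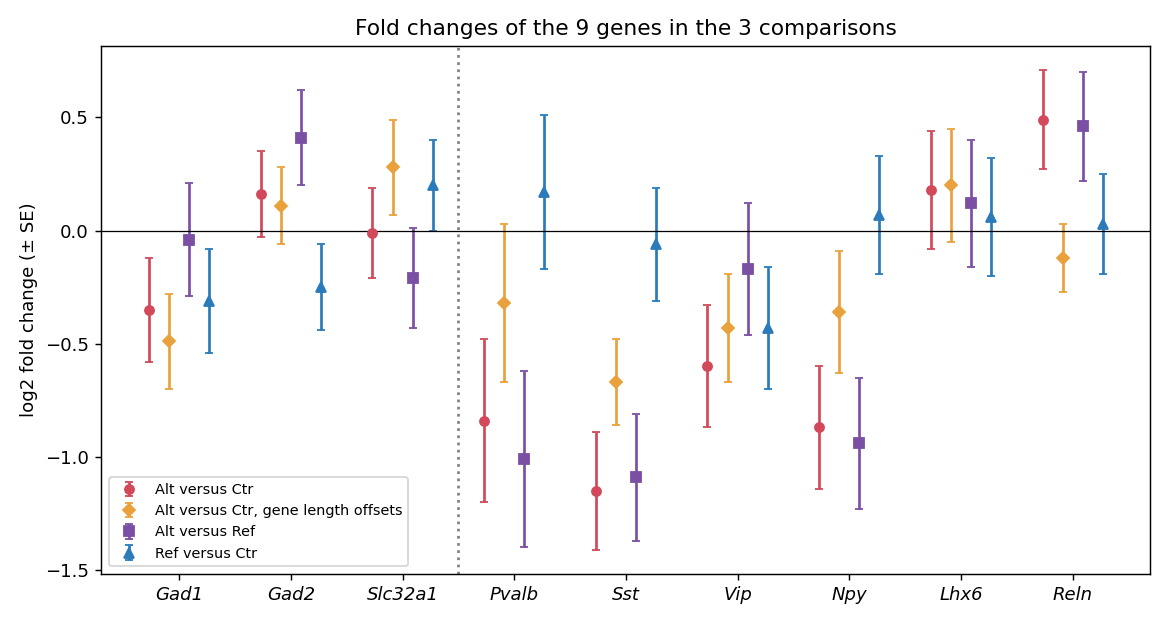
Log2 fold change (vertical axis, ± SE) of each gene for Alt versus Ctr, for Alt versus Ctr with gene length offsets, for Alt against Ref, and for Ref against Ctr; the dotted line separates the 3 synthesis genes from the 6 subclass genes. Sst, Npy and Pvalb lie lowest in both comparisons of Alt without offsets. The length offsets move Pvalb from -0.84 to -0.32 and Reln from 0.49 to -0.12. With them Gad1 at -0.49 and Vip at -0.43 lie below Npy at -0.36 and Pvalb.

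The members that were lower in Alt had shorter genes than the one that was higher. Npy (566 bases), Sst (721 bases) and Pvalb (1041 bases) were in the shortest of the 10 length classes, and Reln (23738 bases) was in the longest. Between Alt and Ctr, the median log2 fold change over the shortest class was -0.32, with 15.4% of its genes lower at an unadjusted p of 0.05, and over the longest class it was 0.35, with 39.3% of genes higher. Npy and Pvalb lay within the middle 50% of the genes in their class, which spanned -0.96 to 0.46, and Sst lay below it at -1.15. Reln lay within the middle 50% of its class, from 0.11 to 0.60. Vip (3402 bases) at -0.60 lay below the middle 50% of its class, from -0.43 to 0.16, and Gad1 (7639 bases) at -0.35 lay below that of its own, from -0.05 to 0.42.

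**Figure D3:**
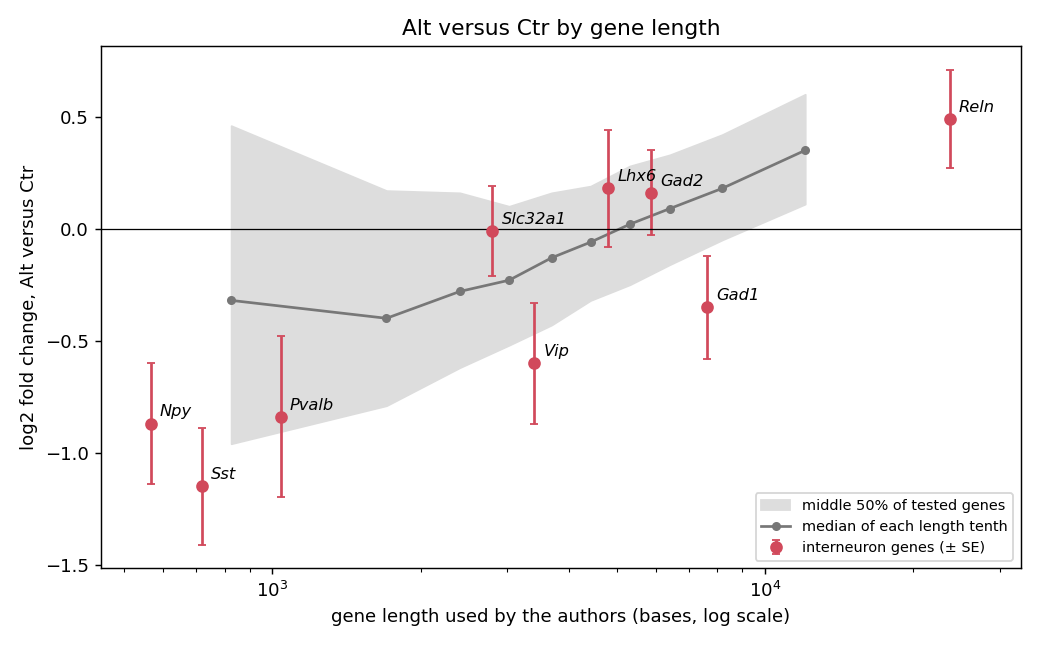
Log2 fold change between Alt and Ctr (vertical axis) against gene length in bases (horizontal axis, log scale); grey points are the medians of the 10 length classes of all genes tested, the band their middle 50%, and red points the 9 genes ± SE. The medians go from -0.32 in the shortest class to 0.35 in the longest, Sst, Vip and Gad1 lie below the band of their class, and Reln lies within that of its class.

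With a length curve removed per library through offsets in the same edgeR model, 2 of the 9 members passed an unadjusted p of 0.05 between Alt and Ctr, against 16.3% of all genes. Sst had a log2 fold change of -0.67 ± 0.19 with an unadjusted p of 0.00304 and an adjusted p of 0.148. Gad1 had -0.49 ± 0.21 with an unadjusted p of 0.0317 and an adjusted p of 0.257, so a synthesis gene passed the line here and not without the offsets. The other members that had passed without offsets did not pass with them. Npy stood at -0.36 ± 0.27 (unadjusted p = 0.205), Pvalb at -0.32 ± 0.35 (0.377), Vip at -0.43 ± 0.24 (0.0912) and Reln, with its sign changed, at -0.12 ± 0.15 (0.411). Gad2 at 0.11 ± 0.17 (unadjusted p = 0.512), Slc32a1 at 0.28 ± 0.21 (0.211) and Lhx6 at 0.20 ± 0.25 (0.434) passed neither with nor without offsets. The median over the subclass genes was -0.34 and that over the synthesis genes 0.11.

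Without Alt replicate 1, the library farthest from Ctr by length class, Alt holds a single library, which is assumed to vary like those of Ctr and Ref. Sst and Npy were the 2 members with an unadjusted p under 0.05 between Alt and Ctr in that edgeR fit, beside 8.36% of all genes. Sst was at -0.77 ± 0.24 (unadjusted p = 0.00692) and Npy at -0.84 ± 0.33 (unadjusted p = 0.024). Pvalb at -0.54 ± 0.39 (unadjusted p = 0.192) and Vip at -0.24 ± 0.26 (unadjusted p = 0.363) did not pass. Sst was under this line in 18 of the 18 alternative fits of this comparison, with log2 fold changes between -1.67 and -0.49 and adjusted p-values between 6.94e-06 and 0.519. Npy was under it in 16 of 18, Vip in 10, Reln in 9, Pvalb in 7, Gad1 in 5, Gad2 in 1 and Slc32a1 and Lhx6 in 0.

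Between Alt and Ref, which differ by 1 base of the expressed transcript, Sst, Npy and Pvalb were again lower. They were the 3 of 9 members under an unadjusted p of 0.05, against 15.5% of all genes, 8.83% lower and 6.71% higher in Alt. No member passed an adjusted p of 0.05 in edgeR, which 1 gene (0.0058%) did, the oligodendrocyte marker Mbp at -1.29 ± 0.16 (adjusted p = 0.0481). DESeq2 called 449 genes at an adjusted p of 0.05 and edgeR without the filter on low counts 850, Sst among them in both. Both comparisons of Alt use the same 2 Alt libraries and are not independent of each other. Sst had a log2 fold change of -1.09 ± 0.28 (edgeR, unadjusted p = 0.00221, adjusted p = 0.229), Npy of -0.94 ± 0.29 (0.00709 and 0.236) and Pvalb of -1.01 ± 0.39 (0.0239 and 0.264). Vip differed by -0.17 ± 0.29 (unadjusted p = 0.576) and Reln by 0.46 ± 0.24 (0.0823). Among the synthesis genes, Gad2 differed by 0.41 ± 0.21 (unadjusted p = 0.0734), Slc32a1 differed by -0.21 ± 0.22 (0.372) and Gad1 by -0.04 ± 0.25 (0.87). Every Alt library lay below every Ref library for 4 of the 9 members, Sst, Npy, Pvalb and Slc32a1, beside 26.1% of all genes, and above for 1, Gad2, beside 21.6%. With length offsets, Sst was at -0.55 ± 0.20 (unadjusted p = 0.0155) and Gad2 at 0.41 ± 0.19 (0.0456), while Npy at -0.37 ± 0.30 (0.228) and Pvalb at -0.46 ± 0.38 (0.247) no longer passed. Without Alt replicate 1, Sst was at -0.69 (unadjusted p = 0.0164), Npy at -0.89 (0.0219), Pvalb at -0.69 (0.118), Gad2 at 0.09 (0.659) and Reln at 0.06 (0.792), the lone Alt library again being assumed to vary like the others. Without Ref replicate 1 or Ref replicate 2, Pvalb was at -1.01 (0.0783) and -0.99 (0.0835), past the unadjusted line in neither, and Reln was at 0.28 (0.38) and 0.69 (0.0518).

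Between Ref and Ctr, 0 of 9 members passed an unadjusted p of 0.05 in edgeR, against 3.14% of all genes, and none passed an adjusted p of 0.05 (0.0% of all genes, while DESeq2 called 6 genes but no member). Sst differed by -0.06 ± 0.25, Npy by 0.07 ± 0.26, Pvalb by 0.17 ± 0.34, Lhx6 by 0.06 ± 0.26 and Reln by 0.03 ± 0.22 on the log2 scale. The largest differences were in Vip, at -0.43 ± 0.27 (unadjusted p = 0.131), and in Gad1, at -0.31 ± 0.23 (0.207). Gad2 at -0.25 ± 0.19 and Slc32a1 at 0.20 ± 0.20 did not pass either. For Vip, the mean level in Ref (21.2 CPM) lay between those in Ctr (28.6 CPM) and Alt (18.9 CPM), whereas for Sst, Npy and Pvalb the mean of Ref was within 1.12 times that of Ctr.

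Relating the subclass genes to the synthesis genes within each library removes the library total from the comparison, but not gene length. Per 100 reads of Gad1, Gad2 and Slc32a1 together, Sst gave 27.9, 17.6 and 39.9 reads in Ctr, 32.7 and 27.9 in Ref, and 8.43 and 18.8 in Alt. Here Alt overlapped with Ctr, because Ctr replicate 2 had the most synthesis reads, 5405, of which 3306 were of Gad1. Npy gave 5.45, 3.07 and 5.06 reads per 100 in Ctr, 5.58 and 5.14 in Ref, and 2.32 and 2.9 in Alt, with no overlap. Pvalb gave 2.91, 2 and 2.59 in Ctr, 3.31 and 3.12 in Ref, and 1.04 and 1.99 in Alt, which put Alt replicate 2 next to the lowest Ctr library. Vip gave 15.1, 12 and 13.6 in Ctr, 10.1 and 13.2 in Ref, and 6.38 and 13.5 in Alt, so that Alt replicate 1 was lowest and Ref replicate 1 also lay below Ctr. Lhx6 ranged from 3.63 to 6.78 and Reln from 18.6 to 38.5 over the 7 libraries, with Alt overlapping Ctr for both genes. In 2 ratios chosen after the values were seen, Sst gave 5.2, 4.86 and 8.15 reads for each read of Lhx6 in Ctr, 4.82 and 6.48 in Ref, and 1.74 and 2.93 in Alt, and Gad1 gave 1.39, 2.03 and 1.32 reads for each of Gad2 in Ctr, 1.45 and 1.63 in Ref, and 0.92 and 1.44 in Alt. Alt lay below both other groups in the first ratio. In the second it overlapped with Ctr and lay below Ref.

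**Figure D4:**
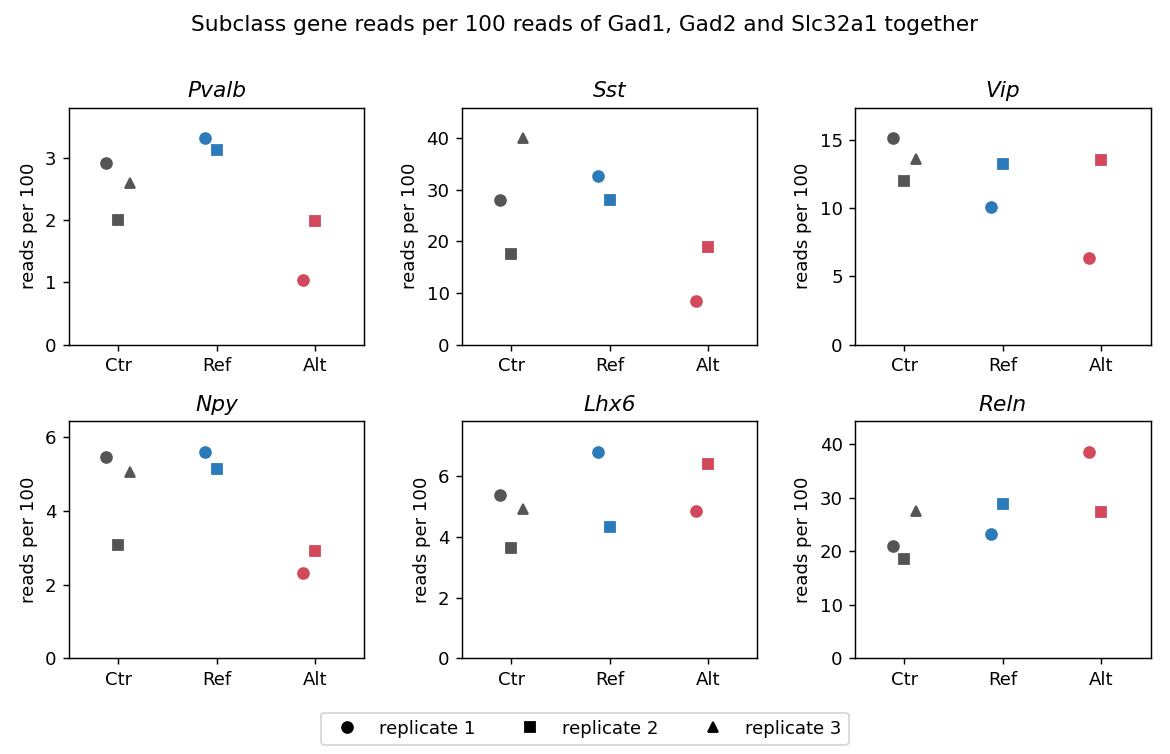
Reads of each subclass gene per 100 reads of Gad1, Gad2 and Slc32a1 together (vertical axes from 0) in the 7 libraries; each point is a library and its shape the replicate number. Both Alt libraries are below all others for Npy at 2.32 and 2.9, while for Sst and Vip Alt replicate 2 lies within the range of Ctr.

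As a single value per library, the mean log2 CPM of the 3 synthesis genes minus that of the 6 subclass genes was 1.48, 1.91 and 1.56 in Ctr, 1.59 and 1.56 in Ref, and 2.35 and 1.81 in Alt. Alt replicate 1 was above all others and Alt replicate 2 lay within the Ctr range. The group means were 1.65 ± 0.23 (SD, n = 3), 1.58 ± 0.02 (n = 2) and 2.08 ± 0.38 (n = 2). The difference between Alt and Ctr was 0.43, beside a pooled SD of 0.29, and it was 0.25 with length offsets and 0.16 without Alt replicate 1. This value summarizes chosen members and was not tested.

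Other interneuron genes were read from companion lists, again between Alt and Ctr at an unadjusted p of 0.05 in edgeR, where no gene passed after adjustment. Of all genes tested, 10.3% were lower and 9.45% higher at this line. None of 7 genes of GABA uptake, GABA breakdown and chloride extrusion passed, and their median log2 fold change was 0.11, or -0.05 with length offsets. Of 14 interneuron transcription factors tested, with a median of 0.11 (0.09 with offsets), Sox6, which acts in the maturation of parvalbumin and somatostatin cells, was higher by 0.83 ± 0.22 (unadjusted p = 0.00284), as was Nr2f2, a factor of the caudal ganglionic eminence, by 0.68 ± 0.23 (unadjusted p = 0.0121). Dlx1, a homeobox factor of interneuron development, was lower at -1.03 ± 0.35 (unadjusted p = 0.0132), and with length offsets it stood at -1.05 (unadjusted p = 0.00837). With the same offsets Sox6 was at 0.39 (unadjusted p = 0.0351), and Nr2f2 no longer passed at 0.49 (unadjusted p = 0.0561). Satb1, named after its values were seen, came under the line with offsets, at -0.44 (unadjusted p = 0.0193). Nkx2-1, also on this list, had at most 9 reads in a library and was not tested.

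None of the companions listed with the parvalbumin and somatostatin subclasses was lower at this line. Of 9 parvalbumin subclass genes, 2 were higher, and the median log2 fold change was 0.37, or 0.14 with offsets. These were Erbb4, the neuregulin receptor of these cells, at 0.54 ± 0.20 (unadjusted p = 0.0185) and Kcnc1, a fast potassium channel, at 0.37 ± 0.15 (unadjusted p = 0.0325). The median over 7 somatostatin subclass genes was 0.13, or 0.29 with offsets. Of these, 2 were higher, namely Nos1, the neuronal nitric oxide synthase, at 0.88 ± 0.20 (unadjusted p = 0.000859) and Grin3a, an NMDA receptor subunit, at 0.66 ± 0.21 (unadjusted p = 0.00938). All 4 are long genes of 9458 to 12355 bases, and with length offsets only Nos1 stayed under the line, at 0.57 (unadjusted p = 0.00399).

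Of 6 Vip subclass genes tested, 2 were lower and 0 higher, with a median log2 fold change of -0.95, or -0.60 with offsets. These were Cck, which encodes cholecystokinin and is also made by many excitatory neurons, at -1.07 ± 0.33 (unadjusted p = 0.00668), and Penk, the enkephalin precursor, at -1.03 ± 0.34 (unadjusted p = 0.0101). With length offsets they stood at -0.60 (unadjusted p = 0.0108) and -0.62 (unadjusted p = 0.0328). Chat, also on this list, had at most 6 reads and was not tested. Of 6 Lamp5 subclass genes, with a median of -0.06 (-0.05 with offsets), Cxcl14, a chemokine, at -0.67 ± 0.22 (unadjusted p = 0.0102) and Id2, a transcriptional regulator, at -0.54 ± 0.24 (unadjusted p = 0.041) were lower, and Sv2c, a synaptic vesicle protein, at 1.40 ± 0.45 (unadjusted p = 0.00917) was higher. With length offsets neither lower gene passed, Cxcl14 at -0.29 (unadjusted p = 0.0852) and Id2 at -0.27 (unadjusted p = 0.138), while Sv2c was at 1.11 (unadjusted p = 0.0115). Sv2c stood at 57.6 CPM in Alt replicate 1 and at 13.2 CPM in Alt replicate 2, within the Ctr range of 10.1 to 17 CPM.

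The part of other cell types in the interneuron results was not tested, and the levels of their markers follow. Between Alt and Ctr, 3 of 7 excitatory neuron markers passed, with Slc17a7 at 0.32 ± 0.14 (unadjusted p = 0.0437) and Camk2a at 0.32 ± 0.14 (unadjusted p = 0.0397) higher and Neurod6 at -0.65 ± 0.20 (unadjusted p = 0.00761) lower. Of 8 oligodendrocyte markers, Mbp at -0.51 ± 0.14 (unadjusted p = 0.00392) and Mag at -0.38 ± 0.15 (unadjusted p = 0.0275) were lower. Between Ref and Ctr, 6 of these 8 were higher, beside 3.14% of all genes passing in either direction, and between Alt and Ref 6 were lower, beside 8.83% of all genes, with summed levels of 1488 to 2013 TPM in Ctr, 2471 to 2704 TPM in Ref and 1285 to 1821 TPM in Alt. Slc1a2, an astrocyte glutamate transporter, was higher in Alt than in Ctr by 0.86 ± 0.21 (unadjusted p = 0.0017), with 1 of 6 astrocyte markers passing and sums of 1506 to 2011 TPM in Ctr, 2136 to 2244 TPM in Ref and 2109 to 3252 TPM in Alt. Between Ref and Ctr, 2 of these 6 markers were higher at an unadjusted p of 0.05. Among 5 microglia markers C1qa was lower at -1.09 ± 0.29 (unadjusted p = 0.00281) and Cx3cr1 higher at 0.36 ± 0.15 (unadjusted p = 0.0357), among 4 endothelium markers Flt1 was higher at 0.56 ± 0.17 (unadjusted p = 0.00579), and none of the 6 striatal markers passed. With length offsets Camk2a at 0.18 (unadjusted p = 0.142), Mag at -0.27 (unadjusted p = 0.0744) and Flt1 at 0.20 (unadjusted p = 0.164) no longer passed. The endothelium marker Cldn5, named after its values were seen, came under the line with offsets alone, at 0.61 (unadjusted p = 0.0363). Those still under the line were Slc17a7 at 0.30 (unadjusted p = 0.0267), Neurod6 at -0.33 (unadjusted p = 0.0438), Mbp at -0.69 (unadjusted p = 0.000146), Slc1a2 at 0.48 (unadjusted p = 0.00326), C1qa at -0.55 (unadjusted p = 0.0362) and Cx3cr1 at 0.42 (unadjusted p = 0.00907). Without offsets, the median log2 fold change between Alt and Ctr was -0.08 over the excitatory, -0.13 over the oligodendrocyte, 0.11 over the astrocyte, -0.09 over the microglia, 0.15 over the endothelium and -0.21 over the striatal markers. With offsets these medians were 0.01, 0.03, 0.06, 0.22, 0.11 and -0.03, so that those of the excitatory, oligodendrocyte and microglia markers changed sign. No marker of these lists was at 0 in any library.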

How the data were processed

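PFC tissue of female mice was profiled in 7 libraries (3 Ctr, 2 Ref, 2 Alt), grouped by the sample labels. The authors deposited raw read counts per gene beside TPM and FPKM values. Both derive from the counts, the gene length and the library total. Recomputed TPM and FPKM differed from the deposited values by a relative difference of at most 2.39e-07 and 4.27e-07. The submitters' processing notes name STAR, featureCounts and the build hg19, without versions. As hg19 is a human build, the mouse build and annotation are not given in the sources used here. Member coordinates in the table differ from those of GRCm38, so no sequence was read by them. Whether counting used strand is not given either, and the antisense genes Gad1os and Gm14205, opposite Gad1 and Slc32a1, had at most 4 reads in a library. Of the genes opposite Reln, Gm16111 had at most 20 and Gm10475 at most 9.

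The tests ran in R 4.3.3 on the counts, with edgeR 4.0.16 (TMM, filterByExpr by group, glmQLFit and glmQLFTest) in 1 model of group means over the 7 libraries. Benjamini-Hochberg adjustment covered 17254 genes. DESeq2 1.42.0 and limma 3.58.1, on log2(TPM + 1), were alternatives, as were other scalings, filters, gene length offsets (loess with a span of 0.3, fitted in each library on genes with a mean CPM of at least 1), the replicate number as a block and leaving out each library. Log2 CPM used a prior count of 2. FPKM values served only for the check above.

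In counts simulated for Alt versus Ctr on 17254 genes, 2-fold changes were called in 56% of genes at an adjusted p of 0.05 and in 78% at an unadjusted p of 0.05. For 4-fold changes these shares were 81% and 90%, and 5.013% of unchanged genes passed the unadjusted line. The simulated libraries were drawn with the trend of spread by level, without the length pattern of Alt or the wider gap between its libraries. These shares therefore need not hold for the real libraries. The 9 members and the companion lists were chosen with earlier results of these data known. Every member is named, and from each companion list at most 4 genes with the smallest unadjusted p between Alt and Ctr among those under 0.05. Beyond this rule, Satb1 and Cldn5 are named for passing with length offsets alone, and Nkx2-1 and Chat as not tested. The values of 1 companion gene are not reported here.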

Additional observations from a re-analysis of the deposited data

How the results depend on the processing

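With no adjusted calls of members between Alt and Ctr or between Alt and Ref, DESeq2 called 1 and 1 (Sst; 6.51% and 2.6% of all genes), edgeR without the low-count filter 1 and 1 (Sst; 5.52% and 3.16%), and DESeq2 on protein-coding genes with the group order as a number 1 (Sst, Alt versus Ctr; 2.71%). Leaving out 1 library gave 0 to 3 adjusted calls in both comparisons, 3 only without Alt replicate 2, where 19.5% and 15% of all genes passed and the lone Alt library is assumed to vary like the other groups. The 5 unadjusted calls between Alt and Ctr became 2 with gene length offsets (16.3% of all genes), 3 in only the 2 groups compared (16.5%), 3 with the group order as a number in edgeR (16.7%), and 2 to 6 when 1 library was left out. They became 2 without Ctr replicate 1 (11.7%), Ctr replicate 2 (19.2%), Ref replicate 1 (16.6%) or Alt replicate 1 (8.36%), 3 without Ref replicate 2 (16.5%) and 6 without Alt replicate 2 (34.9%). The 3 between Alt and Ref became 2 to 6 when 1 library was left out, 6 without Alt replicate 2 (31% of all genes). The 0 between Ref and Ctr became 1 in only the 2 groups compared (Vip; 5.63% of all genes) and 0 to 1 when 1 library was left out, 1 (Vip) without Alt replicate 1 (5.68%) or Alt replicate 2 (5.74%). The cause of these changes was not tested.

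Deviations of libraries that share a replicate number correlated at -0.0984 to 0.0702, so the numbers do not pair libraries. With the replicate block, 4 members passed the unadjusted line between Alt and Ctr (12.6% of all genes) and 3 between Alt and Ref (9.01%), with length offsets added 3 (12.2%) and 1 (9.99%), and between Ref and Ctr 0 (2.49%) and 2 (5.1%). Between Alt and Ctr Pvalb at -0.95 (edgeR, unadjusted p = 0.0609) and Reln at 0.53 (0.111) did not pass under the block, with differences no smaller than without it, and it brought in the synthesis gene Gad1 at -0.50 (0.0492), which stood at -0.66 (0.002) with offsets added, so that 1 of 3 synthesis genes and 3 of 6 subclass genes passed under the block. Over all genes tested, the block moved the unadjusted calls between Alt and Ctr from 3414 to 2180 and between Alt and Ref from 2680 to 1554. Leaving out Alt replicate 1 gave 1442 and 1231, Alt replicate 2 gave 6021 and 5355, Ctr replicate 1 gave 2011 in the first and Ref replicate 1 gave 725 in the second. For Ref versus Ctr, 541 calls became 215 to 990 when 1 library was left out, 972 in only the 2 groups compared, 852 with length offsets and 880 with block and offsets. limma on log2 TPM put 846 genes higher and 2370 lower between Alt and Ctr, beside 1630 and 1784 in edgeR.

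Fold changes that changed sign follow, on the log2 scale. Between Alt and Ctr, Slc32a1 was 0.01 with DESeq2, RLE size factors and protein-coding genes only, 0.02 with upper-quartile scaling, 0.28 with length offsets, 0.08 with the replicate block and 0.36 with both, and -0.11 to 0.08 when 1 library was left out. Reln was -0.12 with length offsets and -0.14 with block and offsets. Gad2 was -0.18 to 0.44 when 1 library was left out. Between Alt and Ref, length offsets without and with the block gave Slc32a1 0.12 and 0.12, Vip 0.03 and 0.02, and Reln -0.06 and -0.07. Leaving out 1 library gave Gad1 -0.14 to 0.09, Vip -0.62 to 0.20 and Lhx6 -0.12 to 0.44. Between Ref and Ctr, Sst was 0.11 with the block and 0.07 with block and offsets, Lhx6 -0.02 and -0.07, and -0.00 with limma, and Reln -0.06 with offsets, -0.08 with both and -0.02 with limma. Leaving out 1 library gave Sst -0.19 to 0.12, Npy -0.01 to 0.19, Gad1 -0.49 to 0.00, Lhx6 -0.25 to 0.30 and Reln -0.19 to 0.21. Sst, Npy and Pvalb were lower in Alt than in Ctr and than in Ref under each of the 18 alternatives. Vip and Gad1 were lower in Alt than in Ctr under each. Lhx6 was higher in Alt than in Ctr, and Gad2 higher in Alt than in Ref, under each. The difference between synthesis and subclass genes, 0.43 above, was 0.16 to 0.70 in the 10 alternatives. It was lowest without Alt replicate 1 and highest without Alt replicate 2.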
